A study of Mus musculus with 2 samples.

Results

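Antibodies are built from a heavy and a light chain, each a variable segment (V) joined to a constant gene, and the constant genes and the J chain are the subject here. A B cell first expresses the heavy constant genes Ighm and Ighd, and class switching then replaces them with a downstream gene of the same locus: Ighg genes for IgG, Ighe for IgE or Igha for IgA. The light chain takes its constant part from Igkc (kappa) or from an Iglc gene (lambda). Antibody-secreting plasma cells make the most of these transcripts. They also make Jchain, the small protein that links IgM and IgA into polymers that epithelia can transport.

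The 10 members were taken by gene name from a table of 54532 genes: Ighm, Ighd, Igha, Ighg2b, Ighg2c, Ighg3, Igkc, Iglc1, Iglc2 and Jchain. The table holds 13 immunoglobulin constant genes in all, and the constant genes outside the list are named as such. The members were proposed with their levels in these same libraries known, so their differences are a description and carry no test. Tissue labelled as adipose was taken from mice aged 3 to 4 weeks and RNA was sequenced from 1 library labelled KO, a knockout of the vesicle-tethering gene Trappc9, and 1 library labelled WT. The design text speaks of 3 KO and 3 WT mice whose abdominal fat pads were digested with collagenase and pelleted, the titles of stem cells derived from fat, and an extraction label of frozen pads. Strain, sex, the knocked-out allele and whether mice were pooled are not given in the sources used here.

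Levels are FPKM, fragments per kilobase of gene length scaled by a library size. The fragments behind each value were recovered from the gene length: 14783728 in the library labelled KO and 13705193 in the library labelled WT. Bracketed ranges are exact 95% intervals for counting error, which do not cover differences between mice or preparations. Reads without molecular identifiers are not independent molecules, and with 1 library per genotype no difference has a replicate check. Trappc9 itself stood at 12.6 FPKM in the library labelled KO and 9.94 FPKM in the library labelled WT, so its gene-level value was not lower under the KO label. Directions below therefore rest on the labels. The 6 listed genes of fat cells stood between 0.0834 and 27.0 FPKM in the library labelled KO and between 0.0632 and 25.1 FPKM in the library labelled WT. Of these 6, 2 had a higher and 4 a lower FPKM in the library labelled KO. Fabp4, a fatty acid carrier, was the highest of the 6 in both. Lpl stood at 6.37 FPKM in the library labelled KO and 9.96 FPKM in the library labelled WT, and Plin1 at 1.11 and 1.87 FPKM. Adipoq, which encodes adiponectin, stood at 0.51 FPKM in the library labelled KO and 2.30 FPKM in the library labelled WT, and Lep, which encodes leptin, had 4 and 3 fragments in the same order of libraries. The 6 listed genes of the epididymal epithelium stood between 216 and 11686 FPKM in the library labelled KO and between 197 and 10039 FPKM in the library labelled WT.

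By summed FPKM, antibody transcripts were about 2.4 times as abundant in the library labelled KO. The 10 members summed to 87.1 FPKM from 1466 fragments there, against 35.8 FPKM from 682 fragments in the library labelled WT, a ratio of 2.43 with an approximate counting interval of 2.18 to 2.72. Igkc and Ighm together made up 88.6% of that sum in the library labelled KO and 85.4% in the library labelled WT. Without both of them the ratio was 1.89. Of the 10 members, 7 had a higher and 3 a lower FPKM in the library labelled KO, and none was at 0 there, whereas 2 had no fragment in the library labelled WT. In bulk samples such as these, fewer cells of a type and less RNA per cell cannot be told apart.

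A 2-fold difference was counted on the scale of log2((KO + 1)/(WT + 1)), with 1 FPKM added to each level, so differences of weakly expressed genes come out smaller on it. By this measure 2 of the 10 members, Igkc and Iglc1, were higher by 2-fold or more in the library labelled KO, and 0 were lower by as much. Across every gene listed, 0.756% passed that size upwards and 0.504% downwards. Of the members, 5 had a mean of at least 1 FPKM and both called members were among them. Among the 15447 genes over that level, 1.79% passed upwards and 1.01% downwards. The median log2 ratio of all 10 members was 0.69, also with the members that were at 0 set to their detection floor of 3 fragments. For the genes over that level the median was 0.02, and across every gene listed it was 0. As the members were chosen on this contrast, nothing is read from these shares. The count was 1 to 5 of 10 under other scalings or added constants.

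**Figure D1:**
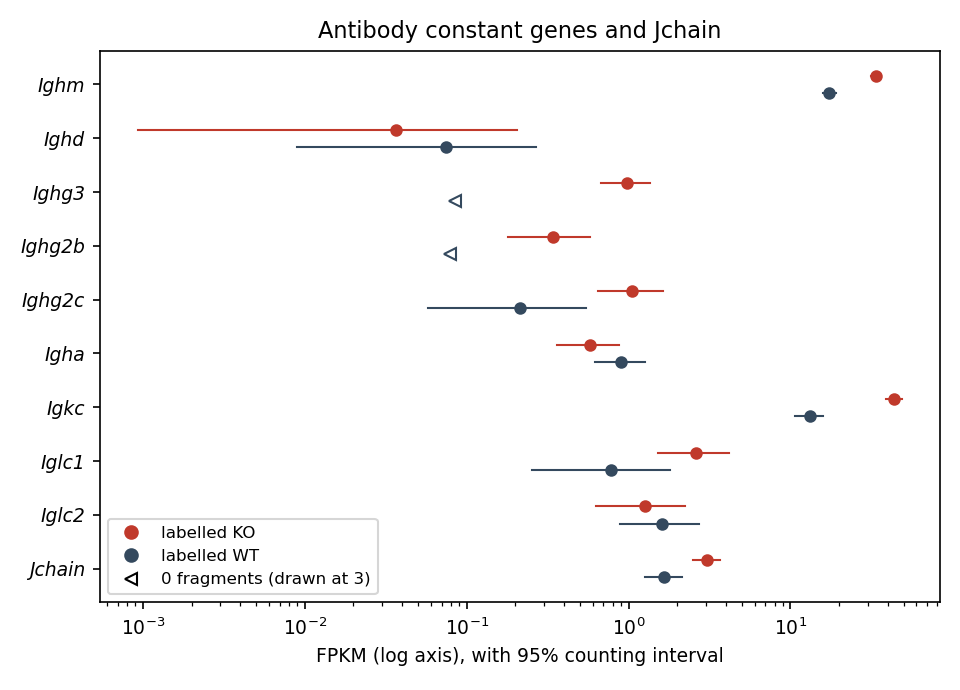
FPKM of the 10 members on a log axis, in the library labelled KO (upper point of each pair) and the library labelled WT (lower point), with 95% counting intervals as lines. Open triangles stand for 0 fragments and are drawn at the level of 3 fragments. Igkc and Ighm lie above 10 FPKM in both libraries, and Ighg3 and Ighg2b have no fragment in the library labelled WT.

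Ighm, the constant gene of IgM (ENSMUSG00000076617, chromosome 12, 113418558 to 113422730, minus strand, mm10), was the most abundant heavy chain in both libraries. It stood at 33.5 FPKM (31.4 to 35.8) from 905 fragments in the library labelled KO and at 17.4 FPKM (15.9 to 19.1) from 465 fragments in the library labelled WT. The ratio was 1.93, with an interval of 1.72 to 2.16. Ordered by FPKM among all genes it ranked 1526 in the library labelled KO and 3074 in the library labelled WT. Ighm was therefore a well-expressed gene in both libraries. Its intervals hold counting error only, and it was chosen with its levels known.

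Ighd, the constant gene of IgD, was close to absent. It lies 2233 bases downstream of Ighm (113406604 to 113416324) and is expressed with it from one primary transcript in naive B cells. It had 1 fragment in the library labelled KO and 2 fragments in the library labelled WT, at 0.037 and 0.074 FPKM. A difference in Ighd was not detectable at this depth.

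The IgG genes differed more in proportion than Ighm did, though the intervals of Ighg2c and Ighg1 include the Ighm ratio of 1.93. Ighg3 (113356224 to 113361232), the constant gene of IgG3, had 35 fragments and 0.97 FPKM in the library labelled KO. In the library labelled WT it had 0 fragments, so its ratio has only a lower limit, 8.91 by the exact interval. With the library labelled WT set to a floor of 3 fragments, the ratio was 11.5. Ighg2b (113302965 to 113307933) had 13 fragments and 0.34 FPKM in the library labelled KO and 0 fragments in the library labelled WT. The lower limit of its ratio was 3.02, and its ratio at the floor was 4.29. Ighg2c (113285325 to 113288932) had 20 fragments and 1.05 FPKM in the library labelled KO and 4 fragments and 0.21 FPKM in the library labelled WT, a ratio of 4.95 (1.66 to 19.9). Ighg1, which is not among the members, had 7 fragments in the library labelled KO and 0 in the library labelled WT. The exact interval allows up to 0.10 FPKM in the library labelled WT, and the lower limit of the Ighg1 ratio was 1.43. Each of the 4 IgG genes had more fragments in the library labelled KO, and all 4 stayed near or under 1 FPKM. Ighg3, Ighg2b and Ighg2c were chosen with these levels known, so their common direction is not a result.

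Summed over the 4 IgG genes, 75 fragments stood in the library labelled KO and 4 in the library labelled WT, a ratio of 18.6 (6.96 to 69.9). IgG genes made up 7.48% (5.93 to 9.28) of heavy-chain constant fragments in the library labelled KO and 0.792% (0.216 to 2.02) in the library labelled WT. These exact Clopper-Pearson intervals hold counting error only, and as members were chosen with their levels known, the difference is a description. Reads could be split between these genes to a small degree: 4.15% of the 50-base stretches of Ighg2b transcripts and 5.49% of those of Ighg2c also occur in another immunoglobulin gene, and 1.58% of those of Ighg3.

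Igha, the constant gene of IgA (113254830 to 113260236), was the one switched isotype with more fragments in the library labelled WT. It had 22 fragments and 0.58 FPKM in the library labelled KO and 34 fragments and 0.90 FPKM in the library labelled WT, a ratio of 0.64 (0.36 to 1.13) whose interval includes no change. As a share of heavy-chain constant fragments it was 2.19% (1.38 to 3.30) in the library labelled KO and 6.73% (4.71 to 9.28) in the library labelled WT. Ighe, for IgE and not a member, had 0 fragments in both.

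By level, Ighm made up 91.4% of the summed FPKM of the 8 heavy-chain constant genes in the library labelled KO and 93.6% in the library labelled WT. In fragments these shares were 90.2% (88.2 to 92.0) and 92.1% (89.4 to 94.3) in the same order of libraries, and the intervals overlap. The remainder was mainly IgG in the library labelled KO and mainly IgA in the library labelled WT.

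**Figure D2:**
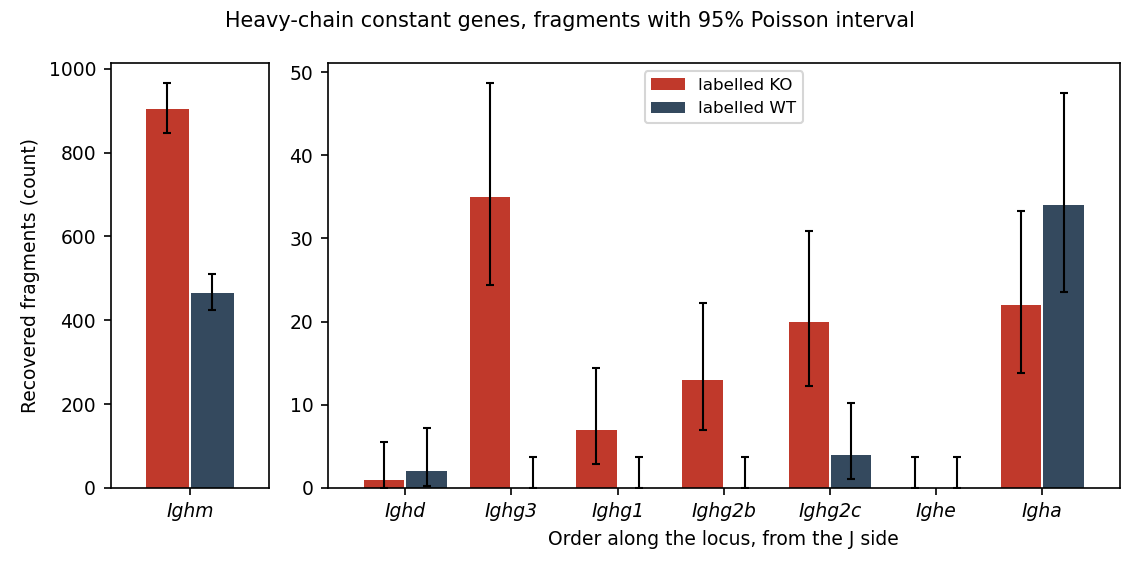
Recovered fragments of the 8 heavy-chain constant genes in their order along chromosome 12, with Ighm on its own axis, for the library labelled KO (left bar of each pair) and the library labelled WT (right bar). Error bars are exact 95% Poisson intervals. All 4 IgG genes have more fragments in the library labelled KO, and Igha has 22 there against 34 in the library labelled WT.

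Jchain (ENSMUSG00000067149, chromosome 5, 88519809 to 88527891, minus strand), the joining chain of polymeric IgM and IgA, stood at 3.06 FPKM (2.51 to 3.68) from 110 fragments in the library labelled KO. It stood at 1.65 FPKM (1.26 to 2.13) from 59 fragments in the library labelled WT. The ratio was 1.85, with an interval of 1.33 to 2.58, close to that of Ighm. Within a library, the level of Jchain relative to Ighm was 0.0911 in the library labelled KO and 0.0951 in the library labelled WT. Jchain is attached through a cysteine near the end of the secreted mu and alpha chains. The last 60 coding bases of the secreted forms are shown for the 2 isotypes that bind it and for Ighg3, the IgG gene with the most fragments, which lacks this tail. Capitals mark a cysteine codon among the last 4 codons before the stop, a search that found 1 in Ighm, 1 in Igha and 0 in Ighg3. The deposited values cover whole genes and do not split secreted from membrane forms. Sequences are from GENCODE M21 (GRCm38), minus strand of chromosome 12, at 113420867 to 113420926 for Ighm, 113258768 to 113258827 for Igha and 113359665 to 113359724 for Ighg3.
Ighm: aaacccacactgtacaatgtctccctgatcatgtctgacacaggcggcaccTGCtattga
Igha: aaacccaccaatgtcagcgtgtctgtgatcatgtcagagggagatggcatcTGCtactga
Ighg3: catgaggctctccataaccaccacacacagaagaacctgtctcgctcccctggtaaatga

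Among the light chains Igkc and Iglc1 were higher in the library labelled KO and Iglc2 was lower. Igkc, the single kappa constant gene (ENSMUSG00000076609, chromosome 6, 70726435 to 70726966, plus strand), stood at 43.6 FPKM (39.1 to 48.6) from 332 fragments in the library labelled KO and at 13.1 FPKM (10.68 to 15.99) from 99 fragments in the library labelled WT. The ratio was 3.32 (2.65 to 4.20), higher than that of Ighm, without a replicate check. The level of Igkc relative to Ighm was 1.30 in the library labelled KO and 0.755 in the library labelled WT. Igkc was thus above Ighm in the library labelled KO and below it in the library labelled WT. Igkc lies within a non-coding RNA gene of the same strand, Gm30211, which had 0 fragments in both libraries.

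Lambda constant genes were low. Iglc1 (chromosome 16, 19061618 to 19062071) had 17 fragments and 2.62 FPKM in the library labelled KO and 5 fragments and 0.78 FPKM in the library labelled WT, a ratio of 3.37 (1.19 to 11.7). Iglc2 (19198396 to 19200351) had 11 fragments and 1.26 FPKM in the library labelled KO and 14 fragments and 1.62 FPKM in the library labelled WT, a ratio of 0.78 (0.32 to 1.85). Iglc3, outside the list, had 6 fragments in the library labelled KO and 4 in the library labelled WT, and Iglc4 had 0 in both. Iglc1 and Iglc3 lie within an antisense gene, 2010309G21Rik, which had 1 fragment in the library labelled KO and 0 in the library labelled WT. Iglc1 was the higher of the lambda genes in the library labelled KO, and Iglc2 in the library labelled WT.

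Kappa made up 90.7% (87.3 to 93.5) of light-chain constant fragments in the library labelled KO and 81.1% (73.1 to 87.7) in the library labelled WT, intervals that overlap at their edges. Summed lambda fragments numbered 34 in the library labelled KO and 23 in the library labelled WT, a ratio of 1.46 (0.84 to 2.60).

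The split between Iglc2 and Iglc3 is uncertain, because their coding parts are identical at 306 of 317 aligned bases (96.5%), and 7.65% of the 50-base stretches of Iglc2 occur in Iglc3. Summed, the pair had 17 fragments in the library labelled KO and 18 in the library labelled WT. Iglc1 differs from Iglc2 at 85 of 317 aligned bases and shares no 50-base stretch with another immunoglobulin gene. The first 240 bases of the 3 coding parts are shown so that this difference can be seen. Capitals in Iglc2 mark bases that differ from Iglc3, and capitals in Iglc3 and Iglc1 mark bases that differ from Iglc2. They are from GENCODE M21 (GRCm38), chromosome 16, minus strand, at 19198614 to 19198853 for Iglc2, 19065442 to 19065681 for Iglc3 and 19061832 to 19062071 for Iglc1.
Iglc2: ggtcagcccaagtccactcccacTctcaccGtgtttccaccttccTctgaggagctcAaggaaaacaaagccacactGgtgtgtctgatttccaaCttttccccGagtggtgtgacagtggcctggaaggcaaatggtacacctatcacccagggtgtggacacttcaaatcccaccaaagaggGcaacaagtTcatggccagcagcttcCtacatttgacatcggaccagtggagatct
Iglc3: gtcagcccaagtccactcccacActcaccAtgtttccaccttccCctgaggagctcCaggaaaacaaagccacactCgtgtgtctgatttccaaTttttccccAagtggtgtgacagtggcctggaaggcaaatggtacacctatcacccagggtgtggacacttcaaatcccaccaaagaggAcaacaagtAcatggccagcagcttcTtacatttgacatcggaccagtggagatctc
Iglc1: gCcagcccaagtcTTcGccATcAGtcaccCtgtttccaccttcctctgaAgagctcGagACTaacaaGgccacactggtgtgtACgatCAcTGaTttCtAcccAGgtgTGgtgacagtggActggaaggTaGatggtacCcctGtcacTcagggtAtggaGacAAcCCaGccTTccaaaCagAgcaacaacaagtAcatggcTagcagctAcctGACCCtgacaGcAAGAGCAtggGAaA

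Variable segments, which did not enter the choice of members but are transcribed in one piece with them, were counted in the same libraries. Over the 216 V segments named for the heavy, kappa and lambda loci, 375 fragments stood in the library labelled KO and 137 in the library labelled WT, a ratio of 2.71 (2.22 to 3.32). Heavy-chain V segments had 123 fragments in the library labelled KO and 58 in the library labelled WT (ratio 2.10, 1.52 to 2.92). Kappa V segments had 192 and 58 in the same order of libraries (ratio 3.28, 2.43 to 4.48), and lambda V segments 60 and 21 (ratio 2.83, 1.70 to 4.90). The heavy and kappa ratios lie close to those of Ighm and Igkc. Relative to the summed FPKM of their constant genes, heavy-chain V segments were at 0.620 in the library labelled KO and 0.598 in the library labelled WT, and kappa V segments at 0.831 and 0.847. Lambda V segments were at 2.29 in the library labelled KO and 1.31 in the library labelled WT, from few fragments. The interval of the summed lambda constant ratio, 0.84 to 2.60, overlaps that of the lambda V ratio. A difference beyond counting error was therefore not shown there. Diversity segments of the heavy locus had no fragment in either library, and at 10 to 29 bases they are short targets for counting.

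Many V segments carried the fragments. In the heavy locus 33 of 113 segments had a fragment in the library labelled KO and 22 in the library labelled WT, with 14 shared. In the kappa locus 33 of 100 had a fragment in the library labelled KO and 20 in the library labelled WT, again with 14 shared. The number of segments seen grows with the number of fragments, so these counts do not compare diversity. The 3 leading segments of each library took 40.7% (31.9 to 49.9) of heavy V fragments in the library labelled KO and 29.3% (18.1 to 42.7) in the library labelled WT. For kappa these shares were 48.4% (41.2 to 55.7) in the library labelled KO and 37.9% (25.5 to 51.6) in the library labelled WT. Both pairs of intervals overlap.

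Over both libraries the heavy and kappa segments with the most fragments were Ighv11-2 and Igkv14-126, a pair known in mice from B-1 cells whose receptor binds phosphatidylcholine. Igkv14-126 (chromosome 6, 67896172 to 67896642) had 57 fragments and 11.1 FPKM in the library labelled KO and 9 fragments and 1.77 FPKM in the library labelled WT, a ratio of 6.27 (3.08 to 14.4). It led the kappa segments in both libraries, with 29.7% (23.3 to 36.7) of kappa V fragments in the library labelled KO and 15.5% (7.35 to 27.4) in the library labelled WT. Ighv11-2 (chromosome 12, 114048241 to 114048812) had 23 fragments and 3.49 FPKM in the library labelled KO and 2 fragments and 0.31 FPKM in the library labelled WT, a ratio of 11.4 (2.81 to 99.7). It led the heavy segments in the library labelled KO, whereas Ighv1-81 and Ighv1-55, named after their values were seen, led the library labelled WT. Ighv1-81 had 1 fragment in the library labelled KO and 6 in the library labelled WT, and Ighv1-55 had 0 and 6. This pair too was chosen after its values were seen, and Ighv11-2 leads its locus through the library labelled KO. Its summed values are therefore a description and their direction is not a result. The pair summed to 80 fragments in the library labelled KO and 11 in the library labelled WT, a ratio of 7.20 (3.82 to 15.0). Without the pair, V segments numbered 295 fragments in the library labelled KO and 126 in the library labelled WT, a ratio of 2.32 (1.88 to 2.88).

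A second pair known from B-1 cells of the same specificity, named here after its values were seen, is Ighv12-3 with Igkv4-91. It had 3 and 6 fragments in the library labelled KO and 0 and 0 in the library labelled WT. At this depth Ighv12-3 could not be told from absent in the library labelled WT. Whether any heavy and light segment came from the same cell was not measured.

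The germline V exons of Ighv11-2 (its last 300 bases) and Igkv14-126 are shown because they took the most fragments of their loci. They are from GENCODE M21 (GRCm38), at chromosome 12, 114048241 to 114048540, minus strand, and chromosome 6, 67896345 to 67896642, plus strand. Capitals mark the cysteine codons, the later 2 of which hold the variable domain together. No 50-base stretch of Igkv14-126 occurs in another immunoglobulin gene, whereas 38.6% of those of Ighv11-2 also occur in Ighv11-1, which had no fragment in either library.
Ighv11-2: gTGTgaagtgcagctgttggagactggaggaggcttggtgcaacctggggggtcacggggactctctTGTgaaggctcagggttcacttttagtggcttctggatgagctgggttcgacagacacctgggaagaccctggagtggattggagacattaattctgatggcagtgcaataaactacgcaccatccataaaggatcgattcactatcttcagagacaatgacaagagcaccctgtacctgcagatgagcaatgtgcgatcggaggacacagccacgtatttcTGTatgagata
Igkv14-126: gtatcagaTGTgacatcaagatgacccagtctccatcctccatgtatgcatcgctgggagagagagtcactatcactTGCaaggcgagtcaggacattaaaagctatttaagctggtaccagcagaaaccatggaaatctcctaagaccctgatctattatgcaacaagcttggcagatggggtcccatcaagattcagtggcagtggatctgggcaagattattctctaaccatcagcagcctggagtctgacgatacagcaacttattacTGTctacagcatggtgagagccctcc

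The segments named here are the leading 3 of each locus by fragments summed over both libraries, so a segment abundant in one library can enter through that library alone, and the direction of those named is not a result. Ighv7-3 had 19 fragments in the library labelled KO and 0 in the library labelled WT. Its ratio has only a lower limit, 4.62, and was 6.27 with the library labelled WT at a floor of 3 fragments. Ighv5-17 had 7 and 3 fragments in the same order of libraries (ratio 2.31, 0.53 to 13.9). Segments with fewer fragments under the KO label, named after their values were seen, were Ighv1-15 with 1 fragment in the library labelled KO and 5 in the library labelled WT, and Igkv2-109 with 2 and 8. Igkv1-117 had 19 fragments in the library labelled KO and 5 in the library labelled WT (ratio 3.76, 1.36 to 12.9), and Igkv1-110 had 17 and 1 (ratio 16.8, 2.64 to 704). Of their 50-base stretches, 49.9% in Igkv1-117 and 50.9% in Igkv1-110 also occur in another immunoglobulin gene, so their split is uncertain.

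The lambda segments followed their constant genes in part. Iglv1, which in mice joins mainly to Iglc1 or Iglc3, had 37 fragments in the library labelled KO and 5 in the library labelled WT, a ratio of 7.33 (2.87 to 23.9). Iglv2, which joins mainly to Iglc2, had 19 and 12 fragments in the same order of libraries, a ratio of 1.57 (0.72 to 3.54), while Iglc2 itself had 11 and 14. Iglv3 had 4 fragments in each library. Iglv1 was thus the leading lambda segment in the library labelled KO, and Iglv2 in the library labelled WT. Between Iglv1 and Iglv2 the split is uncertain too, as 22.2% of the 50-base stretches of Iglv1 also occur in another immunoglobulin gene.

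**Figure D3:**
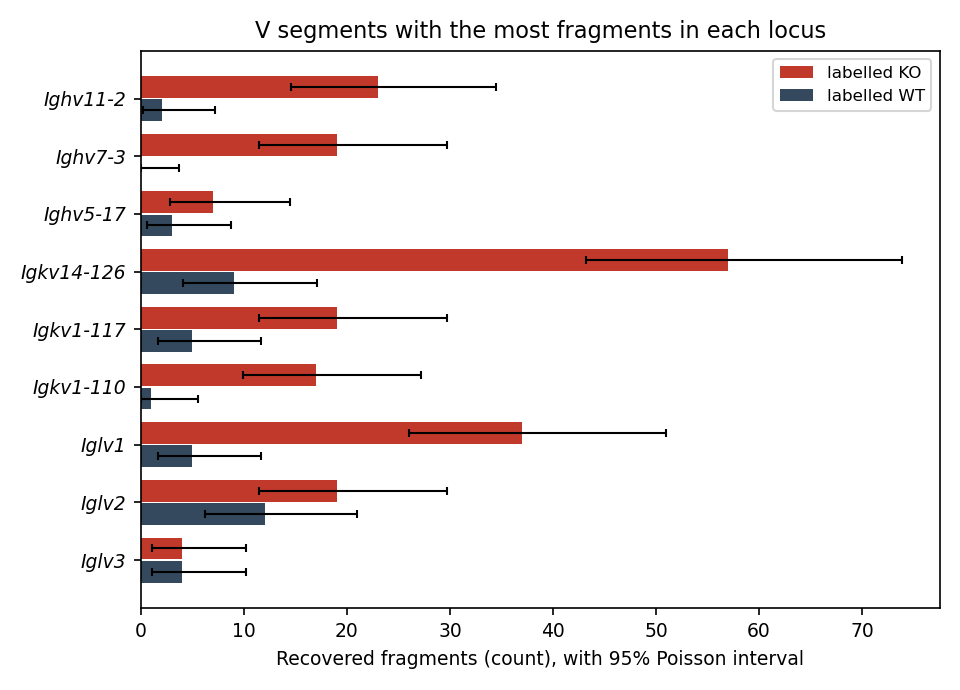
Recovered fragments of the 3 V segments with the most fragments in the heavy, kappa and lambda loci, in the library labelled KO (upper bar of each pair) and the library labelled WT (lower bar), with exact 95% Poisson intervals. Igkv14-126 reaches 57 fragments in the library labelled KO against 9 in the library labelled WT, and Iglv3 has 4 in each.

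Surface and lineage genes of B cells were few in fragments and split in direction. Of 14 B cell identity genes, 7 had a higher and 7 a lower FPKM in the library labelled KO, and 1, the tetraspanin Cd37, had a mean of at least 1 FPKM, so no list median was taken under that filter. Cd37, which other leukocytes express too, stood at 1.91 FPKM in the library labelled KO and 1.46 FPKM in the library labelled WT. Cd79a, a signalling subunit of the B cell receptor, stood at 0.48 FPKM from 10 fragments in the library labelled KO and 0.78 FPKM from 16 fragments in the library labelled WT. Its partner Cd79b had 6 and 2 fragments in the same order of libraries. The lineage factor Pax5 had 6 fragments in the library labelled KO and 10 in the library labelled WT, and Ms4a1, which encodes CD20, had 2 and 0. All 14 genes together summed to 174 fragments in the library labelled KO and 163 in the library labelled WT, and without Cd37, a choice made after seeing the data, the other 13 summed to 78 and 90. Most of these B cell genes were near the limit of detection, while Ighm alone had 905 and 465 fragments in the same order of libraries.

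Genes that plasma cells use split into those also made widely and those closer to the lineage. Of 15 listed genes, 10 had a mean of at least 1 FPKM, and their median log2 ratio was −0.05. With 1 FPKM added, 0 of these 10 were 2-fold higher or lower, against 1.79% and 1.01% of all genes over that level. At those shares, 0 of 10 is not a result about these genes. The secretory chaperones Hspa5 (523 FPKM in the library labelled KO and 543 FPKM in the library labelled WT) and Hsp90b1 (334 and 333 FPKM) lead the list and are made by most secretory cells. Xbp1, a factor of the secretory programme, stood at 66.9 FPKM in the library labelled KO and 69.1 FPKM in the library labelled WT, and Sdc1, a surface proteoglycan shared by epithelia, at 65.8 and 58.7 FPKM. Mzb1, a chaperone of antibody assembly, had 17 fragments in each library. Tnfrsf17, the BCMA receptor of plasma cells, had 4 fragments in the library labelled KO and 5 in the library labelled WT.

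Pou2af1, a B-lineage co-activator of immunoglobulin promoters, was named after its values were seen. It had 23 fragments and 0.63 FPKM in the library labelled KO and 8 fragments and 0.22 FPKM in the library labelled WT, a ratio of 2.85 (1.23 to 7.36). Eaf2, named likewise, had 38 and 19 fragments in the same order of libraries, whereas Irf4, a factor of plasma cell differentiation, had 40 in the library labelled KO and 45 in the library labelled WT. Of the 15 listed genes, 6 had a higher and 9 a lower FPKM in the library labelled KO.

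**Figure D4:**
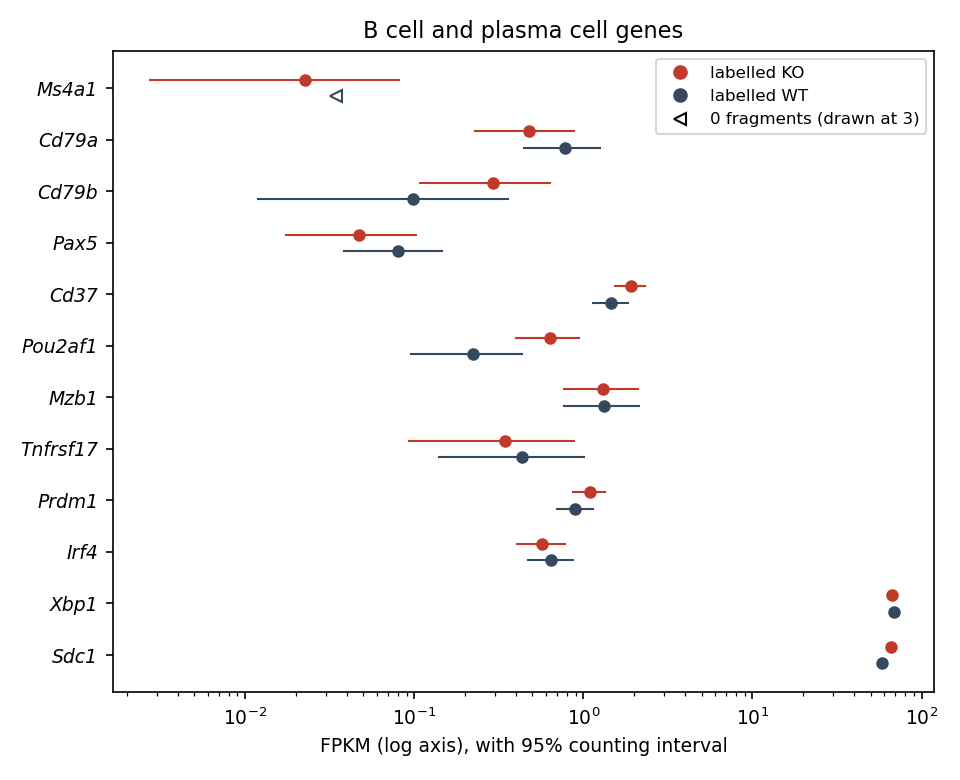
FPKM on a log axis of B cell genes (Ms4a1 to Cd37) and of genes used by plasma cells (Pou2af1 to Sdc1), in the library labelled KO (upper point of each pair) and the library labelled WT (lower point), with 95% counting intervals. Open triangles stand for 0 fragments, drawn at 3. Xbp1 and Sdc1 lie between 58.7 and 69.1 FPKM, while the B cell genes other than Cd37 lie under 1 FPKM.

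The 4 pan-leukocyte genes summed to 21.1 FPKM in the library labelled KO and 19.7 FPKM in the library labelled WT, with Ptprc at 1.06 and 1.12 FPKM. The 6 T cell genes summed to 45 fragments in the library labelled KO and 36 in the library labelled WT. Of the 6 listed genes of the epididymal epithelium, 3 were higher by 2-fold or more under the KO label, Lcn5, Rnase9 and Cst8, against 1.79% of genes over 1 FPKM. The most abundant ones differed less, with Gpx5 at 11686 FPKM in the library labelled KO and 10039 FPKM in the library labelled WT and Lcn8 at 4750 and 3719 FPKM, and Epcam stood at 216 FPKM in the library labelled KO and 226 FPKM in the library labelled WT. Of the 4 stromal genes 0 differed by 2-fold, against 1.79% upwards and 1.01% downwards among genes over 1 FPKM. Their median log2 ratio was −0.32. Dcn stood at 122 FPKM in the library labelled KO and 130 FPKM in the library labelled WT, and Col3a1 at 312 FPKM in the library labelled KO and 481 FPKM in the library labelled WT. The part of any of these in the antibody difference was not tested.

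With 1 FPKM added to each level, 0 of 7 measured genes that bind or carry antibodies were 2-fold higher or lower. Among all genes over a mean of 1 FPKM, 1.79% passed upwards and 1.01% downwards. The median log2 ratio of the 7 was 0.03. Ratios of fragments given below have no added constant, so Fcmr, 1 of the 7, is over 2-fold there. Fcgrt, the neonatal Fc receptor that protects IgG from breakdown, was the highest at 40.1 FPKM in the library labelled KO and 46.1 FPKM in the library labelled WT. Fcgr2b, the inhibitory IgG receptor, stood at 14.4 FPKM in the library labelled KO and 21.1 FPKM in the library labelled WT, a ratio of 0.68 (0.63 to 0.73). Pigr, the epithelial receptor that carries J-chain-linked IgM and IgA, stood at 0.33 FPKM from 19 fragments in the library labelled KO and 0.11 FPKM from 6 fragments in the library labelled WT. Fcmr, the IgM receptor found mainly on B cells, had 42 fragments and 1.69 FPKM in the library labelled KO and 13 fragments and 0.53 FPKM in the library labelled WT, a ratio of 3.20 (1.69 to 6.50). Fcgr4, an activating IgG receptor of myeloid cells, had 20 fragments and 1.11 FPKM in the library labelled KO and 4 fragments and 0.22 FPKM in the library labelled WT, a ratio of 4.95 (1.66 to 19.9). Pigr, Fcmr and Fcgr4 were named after their values were seen.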

How the data were processed

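The authors deposited 1 table of FPKM values per gene, 1 column per genotype, with gene length, position and biotype. Per the submitters' processing notes, the aligner was HISAT2 2.0.5, and 2 builds are listed (hg38 and mm10). The counting program, its strand and multi-read settings and the read length are not given in the sources used here, and they bear on V segments and near-identical constant genes. All 430 immunoglobulin and Jchain identifiers had the same start and end in GENCODE M21 (GRCm38).

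Each library has 1 step by which FPKM times gene length divides into whole fragments; this held for 100% of values above 0, to within 0.01 of a fragment. The deposited scaling was kept. Fragment ratios were scaled by these steps, with exact Clopper-Pearson intervals on the KO share (SciPy 1.17.1). Poisson intervals were exact, and the interval of the summed ratio used a normal approximation. Floors are 3 fragments per library. A count test was not run, as there is 1 library per genotype. Scripts were tested on simulated data.

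Members and lists were chosen with earlier results of these data known. Named genes were all members, the other constant genes, the 3 leading V segments per locus, up to 6 members per list by mean FPKM, and Trappc9. Named outside this rule, after their values were seen, were Ms4a1, Pax5, Mzb1, Tnfrsf17, Pou2af1, Eaf2, Irf4, Pigr, Fcmr, Fcgr4, Cxcl13, Il5, Vpreb2, Igll1, Ighv12-3, Igkv4-91, Ighv1-81, Ighv1-55, Ighv1-15, Igkv2-109 and Ighv11-1. Alternatives covered scaling, the added constant, filters and gene sets.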

Additional observations from a re-analysis of the deposited data

How the results depend on the processing

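No paired analysis was possible because each genotype has 1 library, and for the same reason no library could be left out. The directions of the 10 members kept their sign under every scaling and added constant tried. The number of members at least 2-fold higher, 2 as reported, was 4 after rescaling to TPM, 1 when scaled by the recovered fragments, 5 with 0.1 FPKM added and 1 with 5 FPKM added, while 3.16%, 1.57%, 2.96% and 0.544% of genes over a mean of 1 on that scale passed, against 1.79% as reported; 5 of the 10 members lie under that mean in FPKM. In TPM the median gene shifted by −0.19. The members' median log2 ratio was 1.29 with 0.1 FPKM added and 0.24 with 5 FPKM added, as the size of a ratio at low levels depends on the constant by construction. The summed ratio of 2.43 was 2.12 in TPM, 1.92 without Igkc, 2.91 without Ighm and, in an alternative chosen after seeing the data, 1.89 without both. The plasma cell list's median was −0.25 in TPM. Shares of Ighm and Igkc and the V segment ratios moved by less than their counting intervals. The B cell list had too few genes over the filter for a median; without the filter it was −0.01.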

Other observations

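The genes of V(D)J recombination and of the surrogate light chain named here had few or no fragments in both libraries. Rag1, of the recombinase that joins V segments, had 1 fragment in the library labelled KO and 2 in the library labelled WT. The surrogate light-chain genes Vpreb2 and Igll1 of early B cells had 0 in both. Of the same list, Vpreb1 had 1 fragment in the library labelled KO and 2 in the library labelled WT, Vpreb3 had 4 and 7, and Dntt had 3 and 0. Ung, a uracil glycosylase of DNA repair in many cell types, stood at 2.42 FPKM in the library labelled KO and 3.51 FPKM in the library labelled WT.

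Of 11 genes for signals that attract or sustain B cells and plasma cells, 5 had a mean of at least 1 FPKM. With 1 FPKM added, 0 of the 5 were 2-fold higher or lower, against 1.79% and 1.01% of all genes over that level. Their median log2 ratio was −0.16. Cxcl12, a chemokine that retains plasma cells, stood at 12.9 FPKM in the library labelled KO and 14.9 FPKM in the library labelled WT. Il6, a cytokine of plasma cell survival, stood at 8.06 FPKM in the library labelled KO and 9.54 FPKM in the library labelled WT. Ccl28, which attracts cells that secrete IgA, stood at 3.26 FPKM in the library labelled KO and 2.59 FPKM in the library labelled WT, a ratio of 1.26 (1.03 to 1.54). Il5, a cytokine that acts on B-1 cells in mice, had 11 fragments in the library labelled KO and 2 in the library labelled WT, a ratio of 5.45 (1.19 to 50.6). Cxcl13, which attracts B cells, had 8 fragments in the library labelled KO and 14 in the library labelled WT.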
